A study of Mus musculus with 22 samples.

Results

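The regions described here are the 300 stretches of 100 kb on the mouse autosomes in which DNA methylation (5mC) was highest in all 3 brain tissues of the study. Genomic DNA came from the whole cerebral cortex without the hippocampus, the whole olfactory bulb and the whole cerebellum of C57BL/6 mice, 8 weeks old and female, with no treatment. Oxidative bisulfite sequencing (oxBS-seq, 3 cortex, 2 olfactory bulb and 2 cerebellum libraries) read 5mC alone, and TET-assisted bisulfite sequencing (TAB-seq, 3 libraries per tissue) read its oxidized form 5hmC. Replicates, called technical in one place of the study and biological in another, came from independent mice. Libraries are numbered by their sample titles, and the numbers in the names of their tables differ from these. The unit throughout is a level, the deposited fraction for each bin, from 0 to 1. The read depth behind a level is unknown, because the tables hold levels without coverage. The members were chosen from the 5mC levels themselves. Among 24011 autosomal bins with a level above 0 and below 1 in all 7 oxBS-seq libraries, the mean was taken per tissue, and the 300 bins whose lowest tissue mean was highest were kept. All 5mC values of these bins are therefore a description and carry no test.

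A cytosine followed by guanine (CpG) is methylated by DNA methyltransferases over most of a mammalian genome, and the methyl mark is densest over repeats and silent sequence. CpG-rich promoters (CpG islands) stay free of it. TET enzymes oxidize 5mC to 5hmC, which is most abundant in neurons and lies mainly in the bodies of expressed genes. A cytosine carries one mark or the other, so the 2 fractions of a site add up to at most 1, and a high 5mC fraction leaves room for little 5hmC at the same site.

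The sequence of these bins was poor in CpG at its gene starts, and the windows below show this together with a few exceptions. They are RefSeq promoter windows on build GRCm38, from 250 bases before to 50 bases after a gene's start, and one 300-base window of a coding exon. They are written 5′ to 3′ on the gene's own strand with every CpG in capitals. The prolactin genes Prl3b1, Prl6a1 and Prl8a8 and the coagulation factor gene F13b lie in the 2 longest runs of members. Vmn2r118, a pheromone receptor gene, had no CpG in its window. Zfp442 and Abcg3 were among the 4 promoters with at least 10 CpGs. The Ttn window is the most CpG-dense 300 bases of coding sequence in the highest of all members, within an exon whose coding part is 17.1 kb long.
Prl3b1 (promoter, chr13:27242180-27242479, plus strand, 2 CpGs): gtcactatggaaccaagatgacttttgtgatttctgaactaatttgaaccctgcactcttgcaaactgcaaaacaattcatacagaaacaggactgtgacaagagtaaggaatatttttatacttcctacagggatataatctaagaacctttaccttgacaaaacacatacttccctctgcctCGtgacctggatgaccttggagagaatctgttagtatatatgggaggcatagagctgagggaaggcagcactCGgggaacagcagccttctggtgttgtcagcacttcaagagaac
Prl6a1 (promoter, chr13:27312365-27312664, plus strand, 4 CpGs): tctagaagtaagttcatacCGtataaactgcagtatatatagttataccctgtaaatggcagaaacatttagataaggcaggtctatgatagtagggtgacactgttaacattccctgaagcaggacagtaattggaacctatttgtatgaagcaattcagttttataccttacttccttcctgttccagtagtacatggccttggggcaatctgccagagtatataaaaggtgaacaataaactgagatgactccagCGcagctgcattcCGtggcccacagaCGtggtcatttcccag
Prl8a8 (promoter, chr13:27513168-27513467, minus strand, 4 CpGs): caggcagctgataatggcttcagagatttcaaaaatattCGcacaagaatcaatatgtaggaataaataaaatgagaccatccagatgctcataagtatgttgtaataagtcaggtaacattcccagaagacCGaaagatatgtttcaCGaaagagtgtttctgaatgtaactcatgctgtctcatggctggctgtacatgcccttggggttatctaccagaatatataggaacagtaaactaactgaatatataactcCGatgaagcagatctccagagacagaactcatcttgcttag
F13b (promoter, chr1:139501457-139501756, plus strand, 3 CpGs): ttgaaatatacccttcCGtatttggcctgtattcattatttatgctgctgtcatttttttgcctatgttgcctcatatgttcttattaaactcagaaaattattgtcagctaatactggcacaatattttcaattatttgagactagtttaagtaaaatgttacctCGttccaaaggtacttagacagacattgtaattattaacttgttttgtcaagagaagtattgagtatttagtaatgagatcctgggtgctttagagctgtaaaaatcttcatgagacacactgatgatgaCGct
Vmn2r118 (promoter, chr17:55624623-55624922, minus strand, 0 CpGs): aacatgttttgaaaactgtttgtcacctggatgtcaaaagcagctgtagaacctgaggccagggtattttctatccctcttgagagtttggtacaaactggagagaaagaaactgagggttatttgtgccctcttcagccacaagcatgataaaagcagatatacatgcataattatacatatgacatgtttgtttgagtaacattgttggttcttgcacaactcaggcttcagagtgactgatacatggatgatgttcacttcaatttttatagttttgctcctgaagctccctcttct
Zfp442 (promoter, chr2:150451452-150451751, minus strand, 10 CpGs): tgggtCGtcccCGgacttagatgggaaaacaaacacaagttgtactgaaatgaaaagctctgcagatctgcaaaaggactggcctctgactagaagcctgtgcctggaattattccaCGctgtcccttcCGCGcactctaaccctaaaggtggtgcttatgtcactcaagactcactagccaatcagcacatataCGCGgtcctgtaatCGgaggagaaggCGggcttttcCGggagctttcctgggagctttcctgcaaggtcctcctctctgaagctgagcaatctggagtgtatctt
Abcg3 (promoter, chr5:104982668-104982967, minus strand, 11 CpGs): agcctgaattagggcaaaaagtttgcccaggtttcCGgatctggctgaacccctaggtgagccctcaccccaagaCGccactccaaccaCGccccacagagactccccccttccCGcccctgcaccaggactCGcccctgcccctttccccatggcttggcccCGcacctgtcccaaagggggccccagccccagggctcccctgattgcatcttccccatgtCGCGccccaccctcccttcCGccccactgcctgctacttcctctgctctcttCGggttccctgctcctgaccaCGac
Ttn (coding exon, chr2:76736231-76736530, minus strand, 17 CpGs): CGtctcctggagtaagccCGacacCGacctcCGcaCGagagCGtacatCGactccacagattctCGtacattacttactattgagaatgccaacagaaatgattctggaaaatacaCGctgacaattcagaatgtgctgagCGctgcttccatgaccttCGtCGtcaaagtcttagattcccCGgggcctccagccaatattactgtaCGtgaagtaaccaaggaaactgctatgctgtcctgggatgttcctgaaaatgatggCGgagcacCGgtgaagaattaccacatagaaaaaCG

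Members held 203 distinct RefSeq promoter windows of 172 genes, in 103 bins. The median window had 1 CpG, against 7 in the 31111 windows of the other eligible bins. At least 10 CpGs were present in 4 member windows (1.97%), against 44.2% of the other windows. At most 2 CpGs were present in 143 member windows (70.4%), against 22.7% of the others, and the dinucleotide CG was wholly missing from 46 (22.7%) against 5.14%. The 4 CpG-rich windows belonged to Zfp442, a zinc finger gene, Abcg3, a transporter gene, and the less studied genes 4930522L14Rik and Gm51778. The promoter table has no entries on chromosome 18, where 15 members lie.

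**Figure D1:**
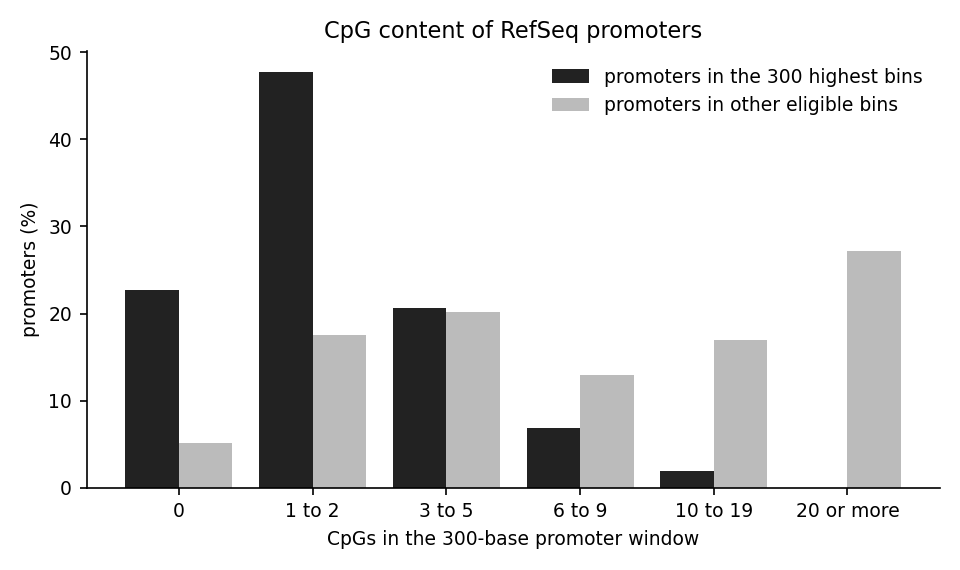
Share of RefSeq promoter windows (y, percent) by the number of CpGs in the window (x), for 203 windows in the 300 highest bins (black) and 31111 in the other eligible bins (grey). The black bars are tallest at 1 to 2 CpGs (47.8%) and none stands at 20 or more, where 27.2% of the grey windows lie.

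The level of the members was close to 0.8 in each library. Their mean 5mC was 0.800 ± 0.0140 in cortex (SD, n = 3), 0.821 ± 0.00290 in the olfactory bulb (SD, n = 2) and 0.828 ± 0.0103 in cerebellum (SD, n = 2). The other eligible bins stood at 0.672 ± 0.0148, 0.703 ± 0.00303 and 0.731 ± 0.0115. Single libraries gave the members 0.808, 0.808 and 0.784 in cortex, 0.819 and 0.823 in the olfactory bulb, and 0.835 and 0.821 in cerebellum, so the third cortex library was the lowest of the 7. The lowest tissue mean ran from 0.864 in the first member to 0.7873 in the last. Inside the limit, rank 299 (chr2:56800001-56900000) had 0.78735 and rank 300 (chr16:89100001-89200000) 0.78730. Just outside it, rank 301 (chr10:29000001-29100000) had 0.78728 and rank 302 (chr4:115300001-115400000) also 0.78728. The limit thus cuts a continuous range, and the next 300 bins are only slightly lower.

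**Figure D2:**
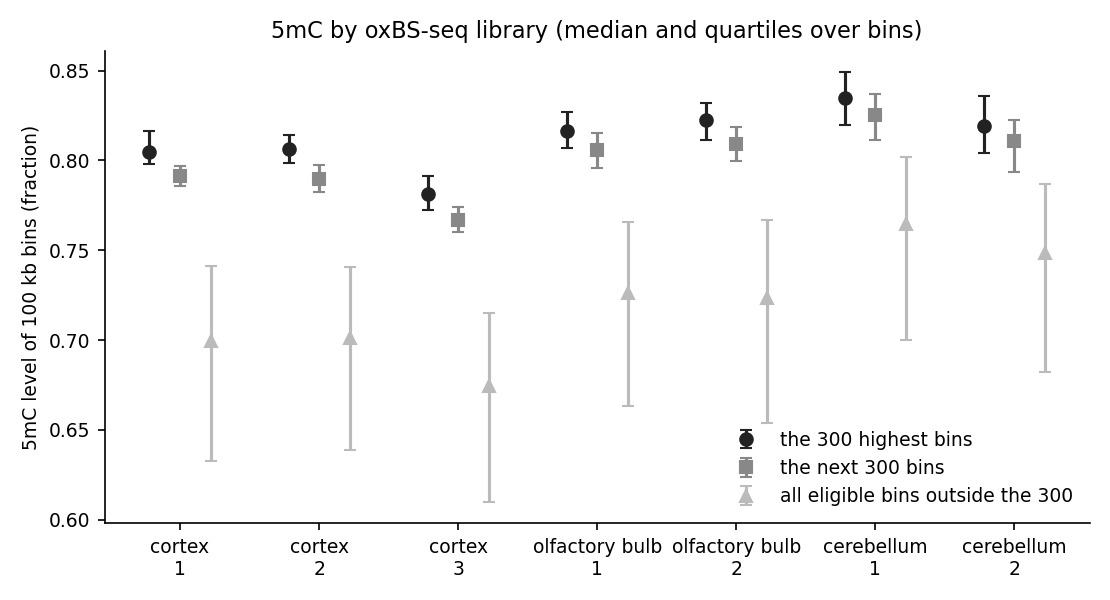
Median and quartiles over bins of the 5mC level (y, fraction) in each oxBS-seq library (x) for the 300 highest bins (circles), the next 300 (squares) and all eligible bins outside the 300 (triangles). In every library the circles lie between 0.781 and 0.835, and the quartiles of the triangles do not reach the lower quartile of the circles.

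The label of the set held in cortex more than in cerebellum. Cortex was the lowest tissue in 259 members, cerebellum in 25 and olfactory bulb in 16, so the rule mostly ranked bins by their cortex level. Of the members, 248 (82.7%) were among the 300 highest bins of cortex itself, 160 (53.3%) among the 300 highest of olfactory bulb and 87 (29.0%) among the 300 highest of cerebellum. The median member stood at rank 180.5 in cortex, 261 in the olfactory bulb and 991.5 in cerebellum, of 24011. The lowest-ranked member in cerebellum was at 7485. With each library first centred on its own median, which removes the lower overall level of cortex, 132 of the 300 bins stayed in the set.

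Differences between tissues were small inside the members. The median olfactory bulb minus cortex difference in level was 0.0204 over members and 0.0319 over all eligible bins. For cerebellum minus cortex it was 0.0269 against 0.0613, and for cerebellum minus olfactory bulb 0.00748 against 0.0275. Every olfactory bulb library was above every cortex library in 164 members (54.7%), where the share over all bins was 62.3%. Cerebellum was above cortex in this way in 183 members (61.0% against 80.5%) and above olfactory bulb in 116 (38.7% against 62.1%), and in 54 members (18.0% against 13.0%) it was below olfactory bulb. Every olfactory bulb library was below every cortex library in 1 member (4.21% of all bins), and every cerebellum library in 2 (4.65%). The rule asks for a high lowest mean, so nothing is read from these differences. A tissue level is an average over all its cells, and a shift in cell make-up and a change within a cell type cannot be told apart.

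The highest member was chr2:76700001-76800000, which lies almost wholly (96.0%) in Ttn, the gene of titin, the giant elastic protein of striated muscle. Its 5mC was 0.875, 0.879 and 0.838 in the cortex libraries, 0.886 and 0.892 in the olfactory bulb, and 0.903 and 0.883 in cerebellum. Each cortex library was below each library of the other tissues, which overlapped with each other. The bin was unlike most members in sequence, with exons over 64.2% of its length, 8.94% repeat-masked sequence and 18.1 CpGs per kb, the highest CpG density of all members. The printed Ttn window lies in it and holds 17 CpGs in 300 bases.

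The second member, chr10:83400001-83500000, lies in D10Wsu102e and Aldh1l2, the latter a mitochondrial enzyme of folate metabolism. It had 0.873, 0.871 and 0.843 in cortex, 0.861 and 0.875 in the olfactory bulb, and 0.906 and 0.884 in cerebellum. Cerebellum was above both other tissues in all libraries. Annotated exons covered 92.6% of this bin and repeats 54.0%.

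Ranks 3, 5 and 7 rest on little sequence. The bins chr16:98100001-98200000, chr14:124800001-124900000 and chr2:177600001-177700000 hold 7768, 2244 and 14087 known bases, and their levels rest on at most 136, 24 and 186 CpGs. The libraries of the chr14 bin ranged widely, with 0.881, 0.900 and 0.833 in cortex, 0.935 and 0.768 in the olfactory bulb, and 0.950 and 0.931 in cerebellum. Rank 4, chr7:21600001-21700000 with the pheromone receptor gene Vmn1r132, has 50000 known bases and gave 0.824 and 0.976 in its 2 cerebellum libraries. In all, 4 members had under 50 kb of known sequence and 4 had tissue libraries more than 0.1 apart. When bins under 50 kb of known sequence were left out, 296 of the 300 members stayed.

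Rank 6 (chr16:16000001-16100000) lies inside Spidr, a scaffold gene of DNA double-strand break repair, and rank 12 (chr16:15700001-15800000) inside Prkdc, which encodes the catalytic subunit of DNA-dependent protein kinase. The Spidr bin had 0.847, 0.853 and 0.805 in cortex, 0.867 and 0.880 in the olfactory bulb, and 0.907 and 0.872 in cerebellum. The Prkdc bin had 0.837, 0.839 and 0.804 in cortex, 0.847 and 0.869 in the olfactory bulb, and 0.884 and 0.870 in cerebellum. In both bins each cortex library was below each library of the other 2 tissues. Exons made up only 1.09% and 6.70% of these bins, so the level is mainly that of introns. Prkdc, like Bard1, Flg2, Flg and Mdn1 below, is named outside the rule for named genes and was chosen after its values were seen.

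Rank 8 (chr2:90300001-90400000) holds Gm13769 and Olfr1274-ps, an olfactory receptor pseudogene by its symbol that is annotated as protein-coding. Rank 9 (chr13:87300001-87400000) holds no protein-coding gene and is 59.8% repeats. Rank 10 (chr13:62500001-62600000) lies in Zfp935 and Zfp934, of the zinc finger gene clusters. Their lowest tissue means were 0.832, 0.830 and 0.829.

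Repeats were the feature that most members shared. The median member was 52.7% repeat-masked, against 31.5% in the other eligible bins, and 61.0% of its CpGs lay in repeats against 23.1%. The share of bins that were members rose with repeat content: 4 of 10575 bins under 30% repeats (0.0378%), 16 of 7278 between 30% and 40% (0.220%), 84 of 4040 between 40% and 50% (2.08%), 135 of 1636 between 50% and 60% (8.25%) and 61 of 482 at 60% or more (12.7%). Most bins rich in repeats were still no members. The next 300 bins had nearly the same median, 51.6%. Reads that mapped to more than 1 place were dropped by the authors, so the level of a repeat-rich bin rests on its mappable copies only.

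**Figure D3:**
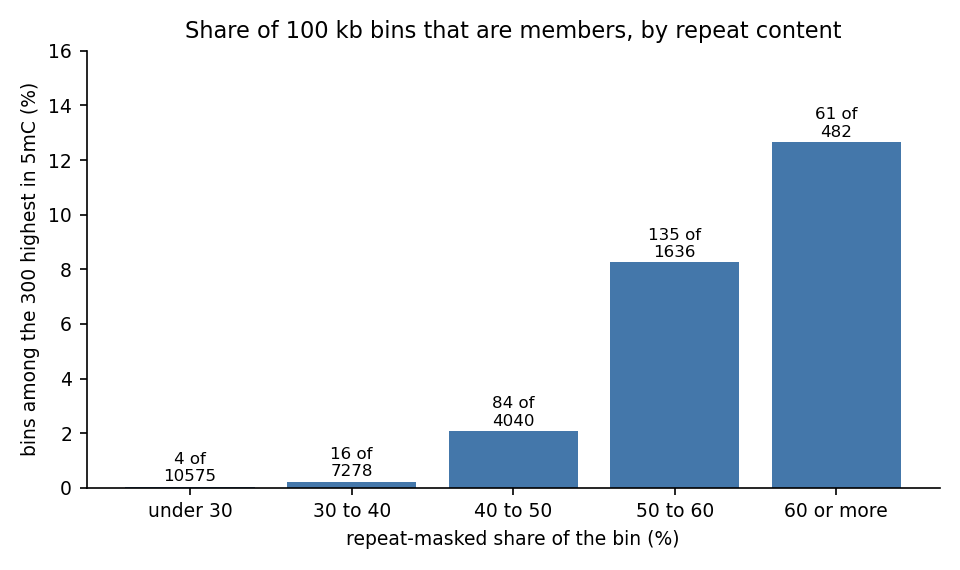
Share of eligible 100 kb bins that are among the 300 highest (y, percent) by the repeat-masked share of the bin (x). The bars carry the numbers of bins and rise from 0.0378% to 12.7%.

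The 4 members under 30% repeats all lay largely in genes. They were the Ttn bin, a bin in Bard1 (rank 77, chr1:71000001-71100000, 25.3% repeats), a bin in Mdn1 (rank 111, chr4:32700001-32800000, 29.2%) and one in Diaph3 (rank 260, chr14:87000001-87100000), a gene of actin assembly. Mdn1 encodes a giant ATPase of ribosome assembly. Its bin had 0.808, 0.812 and 0.774 in cortex, 0.807 and 0.823 in the olfactory bulb, and 0.871 and 0.859 in cerebellum, with cerebellum apart from both other tissues and 12.2 CpGs per kb. A further member with CpG-dense coding sequence was rank 79 (chr3:93200001-93300000), which holds Flg2 and Flg, the filaggrin genes of the skin barrier. It had 0.818, 0.797 and 0.791 in cortex, 0.827 and 0.829 in the olfactory bulb, and 0.824 and 0.793 in cerebellum. Here olfactory bulb alone did not overlap with the other tissues.

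Stretches that met the CpG island criteria (GC above 0.5 and observed to expected CpG above 0.6 over at least 500 bases, less than 50% of it repeat-masked) were missing from 274 members (91.3%), against 61.6% of the other bins. Without the limit on repeat-masked sequence the order was the other way round: 69 members (23.0%) held no such stretch, against 43.9% of the other bins. Of the stretches that are mostly unmasked, the filaggrin bin held 16 and the Ttn bin 4. GC content was 39.0% in the median member and 41.5% in the others, and CpG density 6.57 against 7.83 per kb. Of the next 300 bins, 287 (95.7%) held no mostly unmasked stretch and 104 (34.7%) no such stretch, masked or not. Their median GC content was 38.6% and their CpG density 5.845 per kb, so these traits are not particular to the members.

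Genes covered little of the members. The median gene cover was 6.15% against 49.3% in the other eligible bins. No gene of any type lay in 74 members (24.7% against 13.7%), and no protein-coding gene in 180 (60% against 34.9%). The next 300 bins were poorer still in genes, with a median gene cover of 1.52%. Of them 33.0% held no gene and 70.3% no protein-coding gene, so this trait is not particular to the members. Genes covered part of 169 members and at least 50% of the remaining 57. The median cortex level of these 3 groups was 0.793 without a gene, 0.796 partly in genes and 0.798 mostly in genes. In cerebellum it was 0.833, 0.820 and 0.832. All members were chosen for a high level, so these close medians cannot show whether the level goes with gene content. Over all eligible bins with under 50% repeats, the median lowest tissue mean was 0.729 without a gene and 0.643 mostly in genes. With 50% repeats or more it was 0.761 and 0.744.

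Being free of genes did not by itself put a bin into the set. The 3238 gene-free bins that were no members had 39.8% repeats and 5.37 CpGs per kb in the median, and the 74 gene-free members had 52.2% and 6.52. Of 2784 gene-free bins with under 50% repeats, 20 (0.718%) were members, and of 528 with 50% or more, 54 (10.2%). Among bins mostly in genes the shares were 31 of 11492 (0.270%) and 26 of 325 (8.00%).

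Members overlapped 208 protein-coding genes, 1.00% of the 20775 in eligible bins. They were short, with a median length of 10.02 kb against 17.6 kb for all autosomal protein-coding genes. Among the 618 genes of any type, processed pseudogenes made up 25.9% (17.4% of all autosomal genes) and unprocessed pseudogenes, which are mostly decayed gene copies, 12.5% (3.49%). The 5 longest genes with a member were Iqcm (536 kb), Cpq (511 kb), Diaph3 (486 kb), 2210408I21Rik (478 kb) and Scaper (388 kb). Only Spidr, Diaph3, Cpq, Prl3c1 and Gm4788 reached into 2 members each.

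Some of these genes belonged to clustered families. Of 25 prolactin family genes with numbered symbols, 18 (72.0%) lay in members. Prl, the gene of the pituitary hormone prolactin itself, was not counted among them. Major urinary proteins and lipocalins, which carry pheromones, had 7 of 32 (21.9%), first along the chromosome Mup6, Mup7, Mup2 and Mup19. Vomeronasal receptors, which detect pheromones in the vomeronasal organ, had 15 of 206 of type 1 (7.28%), such as Vmn1r6, Vmn1r7, Vmn1r8 and Vmn1r9, and 6 of 121 of type 2 (4.96%), such as Vmn2r18, Vmn2r77 and Vmn2r83. Olfactory receptors had 26 of 1128 (2.30%), such as Olfr1226 and Olfr1228, and zinc finger genes, many of which silence repeats, 11 of 454 (2.42%), such as Zfp442, Zfp345 and Zfp697. Cytochromes P450 (Cyp2d12, Cyp3a13 and Cyp2j8) had 3 of 100, and the conjugating enzymes of the UDP glucuronosyltransferase and sulfotransferase group (Ugt2b37, Sult1c2 and Sult3a1) 3 of 43. No gene lay in a member among 358 solute carriers, 110 keratins and keratin-associated proteins, 92 voltage-gated potassium channels, 67 protocadherins, 64 defensins, 39 Hox genes and 19 glutamate receptors. Other families of chemical sensing and placenta had none either, with 38 taste receptors, 15 trace amine receptors, 23 placental cathepsins and 28 pregnancy-specific glycoproteins and Ceacam genes. The same held for 60 serpins, 56 lectin-like receptors, 43 collagens, 15 PRAME family genes and oogenesins, and 11 Skint genes. Members held 1.00% of all protein-coding genes, so absence of a small family is not read as a result.

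These families did not share one level. The 8 bins with prolactin genes had median levels of 0.809 in cortex, 0.810 in the olfactory bulb and 0.835 in cerebellum, with a median repeat share of 48.7%. The 9 bins with olfactory receptors had 0.793, 0.816 and 0.805, and the 7 with vomeronasal type 1 receptors had 0.789, 0.819 and 0.810. The 5 bins with major urinary proteins had 0.790, 0.810 and 0.808. By these medians the prolactin bins were highest in cerebellum and those of the other 3 families in the olfactory bulb. The margin was as little as 0.810 against 0.808 for the major urinary proteins. The bins of prolactin genes and of major urinary proteins each lie on 1 chromosome and partly adjoin, while those of olfactory receptors are spread over 6 chromosomes and those of vomeronasal type 1 receptors over 3.

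The 300 members formed 254 runs of adjoining bins, of which 219 were single bins, 28 were pairs, 5 had 3 bins and 2 had 5 bins. The next bins outward of a run had a median lowest mean of 0.747, and 39.8% of them stood in the top 10% of all eligible bins without being members.

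The longest run with the highest levels was chr13:27100001-27600000 in the prolactin cluster, followed after 1 bin by a run of 3 (chr13:27700001-28000000). The first run averaged 0.811 in cortex, 0.816 in the olfactory bulb and 0.839 in cerebellum. Its first bin (rank 17), with the placental lactogen genes Prl3d1, Prl3d2 and Prl3d3, had 0.826, 0.826 and 0.808 in cortex, 0.820 and 0.824 in the olfactory bulb, and 0.850 and 0.829 in cerebellum. Cerebellum stood above the other tissues and cortex overlapped with olfactory bulb. Of the 7 counted prolactin family genes outside members, Prl7b1, Prl7a1 and Prl7a2 lie in the gap bin, of rank 560, and Prl4a1 in a bin of rank 415. Prl2c2, Prl2c3 and Prl2c5 lie apart on the same chromosome, in bins ranked 8133 or lower. The 18 prolactin promoters in members had 0 to 5 CpGs in their windows, with a median of 2.5, as in the sequences of Prl3b1, Prl6a1 and Prl8a8 above.

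**Figure D4:**
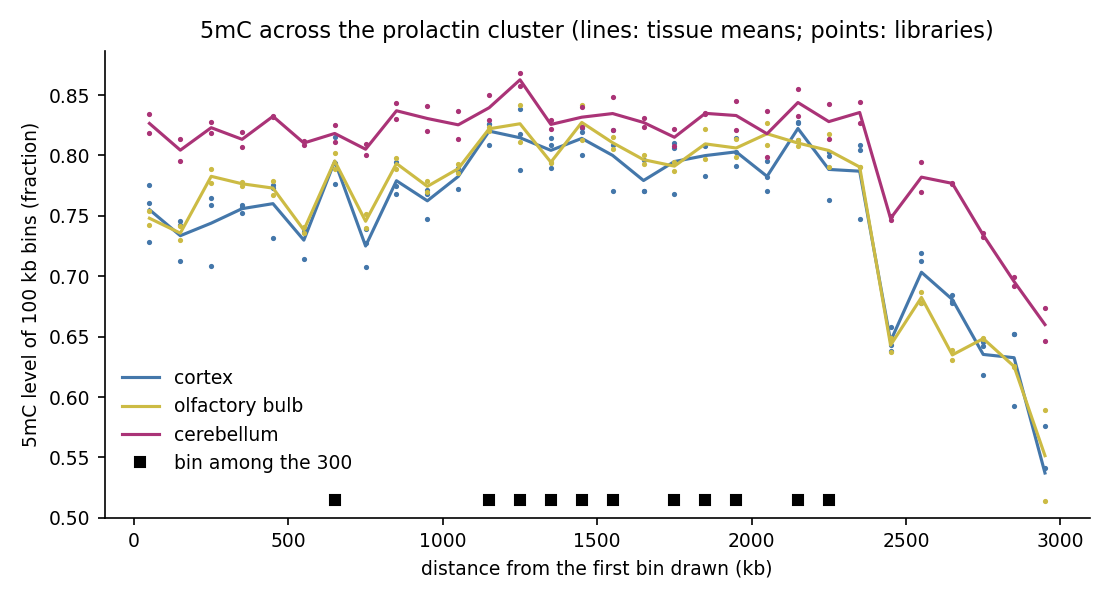
5mC level (y, fraction) of 30 adjoining 100 kb bins across the prolactin cluster, by distance from the first bin drawn (x, kb). Lines are tissue means and points are libraries, and black squares mark bins among the 300. The level stays near 0.8 in all tissues over the cluster and falls in cortex from 0.787 to 0.646 at its far edge.

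The other run of 5 bins was chr1:139500001-140000000, with F13b, which encodes a subunit of coagulation factor XIII, and Gm4788. It averaged 0.795 in cortex, 0.811 in the olfactory bulb and 0.829 in cerebellum, with genes over 75.6% and repeats over 54.2% of its length. Among the runs of 3, chr4:61900001-62200000 lies in the major urinary protein cluster and averaged 0.803, 0.818 and 0.822. The runs chr9:4800001-5100000 (0.794, 0.821 and 0.832) and chr1:44200001-44500000 (0.795, 0.823 and 0.817) were nearly free of genes, with 0.405% and 5.94% gene cover. The run chr3:59500001-59800000 averaged 0.794, 0.821 and 0.830.

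Members lay toward the centromere. In the mouse assembly the centromere is at the start of each autosome, and 156 members (52.0%) fell in the first of 3 equal parts of their chromosome, where 31.8% of the eligible bins are. The middle part had 87 members and the last part 57. The first 5 Mb of sequence held 37 members (12.3% against 3.94% of the eligible bins). Chromosome 13 had most members, 31 of 1174 eligible bins (2.64%), followed by chromosome 3 with 28 (1.78%) and chromosome 1 with 27 (1.40%), where the share over all autosomes was 1.25%. Fewest lay on chromosome 19 with 2 (0.343%), chromosome 17 with 4 (0.435%) and chromosome 8 with 5 (0.396%).

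5hmC was measured in bins of 1 Mb, each 10 times as long as a member. The members fell into 225 such bins, of which 174 held 1 member, 38 held 2 and 13 held 3 or more. Most of the sequence behind a 5hmC value therefore lies outside the members. In these 225 bins the mean 5hmC level was 0.132 ± 0.00861 in cortex (SD, n = 3), 0.110 ± 0.00470 in the olfactory bulb and 0.0659 ± 0.00123 in cerebellum, against 0.173 ± 0.00992, 0.154 ± 0.00441 and 0.102 ± 0.00191 in the 2188 other autosomal bins. The member bins were lower in all 9 libraries, by 0.0410 ± 0.00149 in cortex, 0.0447 ± 0.00205 in the olfactory bulb and 0.0362 ± 0.00107 in cerebellum (mean and SD of the difference within a library, n = 3 each). As a ratio their 5hmC was 0.763, 0.710 and 0.646 of that in the other bins. The gap was many times the spread between libraries, but the bins of a library are not replicates and no test was made.

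**Figure D5:**
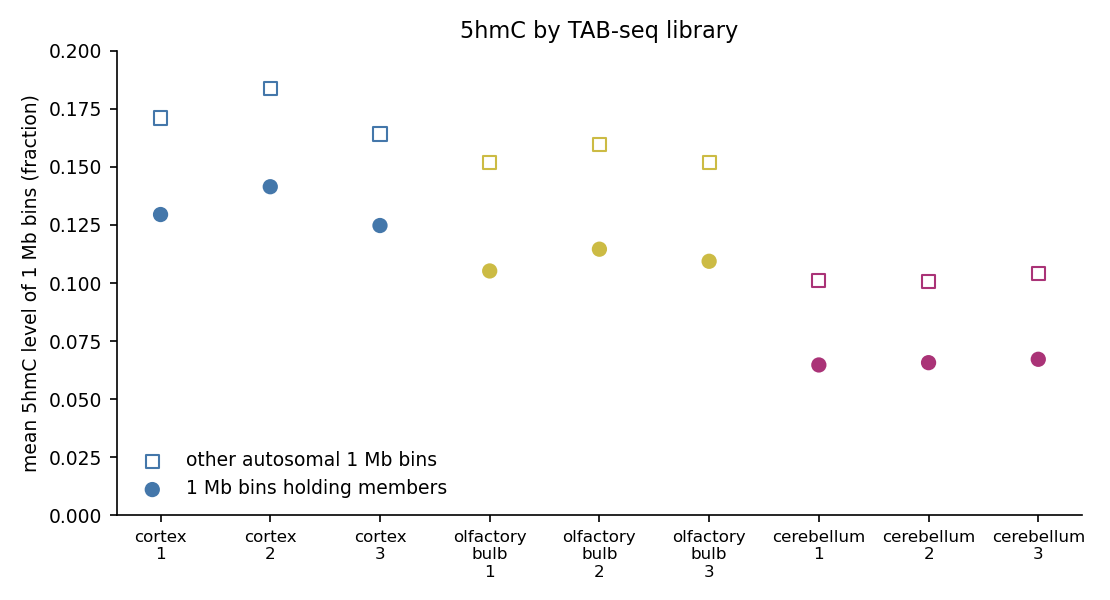
Mean 5hmC level (y, fraction) over the 225 1 Mb bins holding members (filled circles) and the 2188 other autosomal 1 Mb bins (open squares) in each TAB-seq library (x, coloured by tissue). The circle is below the square in all 9 libraries, at 0.125 to 0.141 in cortex, 0.105 to 0.115 in the olfactory bulb and 0.0647 to 0.0672 in cerebellum.

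Repeat content moved with this gap. The member 1 Mb bins were 43.5% repeats in the median against 30.8% in the others, and 33.2% against 53.5% covered by genes. Within 4 equal groups of 1 Mb bins by repeat share, the member bins were lower by 0.00117 to 0.00908 in cortex, by 0.00239 to 0.0150 in the olfactory bulb and by 0.00284 to 0.0355 in cerebellum, still in all 9 libraries. In the group richest in repeats, which held 160 of the 225 bins, the gap was 0.00504, 0.00685 and 0.00284. The largest cerebellum value comes from the group poorest in repeats, where only 4 member bins lie. Within 4 such groups by gene cover the gap stayed larger, at 0.0159 to 0.0366 in cortex, 0.0206 to 0.0418 in the olfactory bulb and 0.0161 to 0.0290 in cerebellum. The part of repeats in the gap was not tested further.

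Together the marks were nearly level. In the member 1 Mb bins 5mC plus 5hmC summed to 0.858 ± 0.0170 in cortex, 0.866 ± 0.00470 in the olfactory bulb and 0.838 ± 0.0104 in cerebellum, against 0.842, 0.854 and 0.830 in the other bins (SD combined from both assays, n = 3, 2 and 2 for 5mC and 3 for 5hmC). 5hmC made up 15.4%, 12.7% and 7.86% of the sum, against 20.5%, 18.1% and 12.3%. The 2 marks were read in different libraries, so the sum is not one of single molecules. The members were chosen by their 5mC, so the sum and the shares are a description only.

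The tissues were compared in 5hmC over all 2581 1 Mb bins with limma on the log2 of level over 1 minus level, with Benjamini-Hochberg adjustment to 0.05. Between olfactory bulb and cortex 183 of the 225 member bins (81.3%) were lower in the olfactory bulb and 1 was higher, where 67.7% of all bins were lower and 3.25% higher. Cerebellum was lower than cortex in 221 (98.2% against 97.6%) and higher in 1 (against 0.426%). Cerebellum was lower than olfactory bulb in 205 (91.1% against 91.8%) and higher in 3 (against 1.20%). The last 2 shares are near those of all bins and say nothing particular of the members. The median difference on the log2 scale was -0.33 for olfactory bulb against cortex (-0.24 over all bins), -1.26 for cerebellum against cortex (-0.97) and -0.87 for cerebellum against olfactory bulb (-0.72). In the level itself, olfactory bulb against cortex had a median of -0.0230 (-0.0198 over all bins). Cerebellum had -0.0684 (-0.0708) against cortex and -0.0421 (-0.0498) against olfactory bulb. The larger fall of cerebellum in member bins was thus seen on the log2 scale only.

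limma estimated 1 spread for all bins (SE 0.07 on the log2 scale), which treats the bins of a library as independent. Counting instead the bins whose libraries did not overlap between tissues, 174 member bins (77.3%) had olfactory bulb wholly below cortex against 68.2% of all bins, 220 (97.8%) had cerebellum below cortex against 97.5%, and 204 (90.7%) had cerebellum below olfactory bulb against 92.6%. The opposite order was seen in 1 member bin for olfactory bulb against cortex (3.33% of all bins), 1 for cerebellum against cortex (0.387%) and 2 for cerebellum against olfactory bulb (1.39%). With each library centred on its own median, which sets the overall loss of 5hmC aside, the calls split into 111 lower and 40 higher for olfactory bulb against cortex (33.0% and 36.2% of all bins), 133 lower and 70 higher for cerebellum against cortex (40.1% and 50.3%), and 107 lower and 90 higher for cerebellum against olfactory bulb (39.1% and 50.9%). On this log2 scale the member bins thus fell relative to the library median more often than they rose in each comparison. Over all bins rises were the more frequent.

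The lowest 5hmC values lay in 5 bins, 4 of them at gene clusters of pheromone biology. The bin chr7:21000001-22000000, with Vmn1r126 and its relatives, had 0.0161, 0.0162 and 0.0180 in cortex, 0.0127, 0.0163 and 0.0106 in the olfactory bulb, and 0.0132, 0.0147 and 0.0142 in cerebellum. Olfactory bulb overlapped with both other tissues here. The bins chr7:32000001-33000000 and chr7:33000001-34000000, with Scgb2b15, Scgb2b24 and other androgen-binding protein genes, had 0.0188 and 0.0177 in cortex, 0.0140 and 0.0132 in the olfactory bulb, and 0.0134 and 0.0142 in cerebellum. The bin chr7:9000001-10000000, with the vomeronasal receptors Vmn2r48 and Vmn2r47, had 0.0185, 0.0139 and 0.0139 in the 3 tissues. The bin chr5:94000001-95000000, with AA792892 and the predicted genes Gm6205 and Gm3139, had 0.0174, 0.0134 and 0.0137. These bins were 54.4% to 67.2% repeats. The authors regard 5hmC beyond gene bodies as so low that it falls within the error of TAB-seq. That error was not taken into account here, so differences between tissues at these values are not read as differences in 5hmC.

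The member bins highest in cortex 5hmC were largely covered by genes. The bin chr14:11000001-12000000, with Ptprg, a receptor phosphatase, and Fhit, had 0.227, 0.243 and 0.216 in cortex, 0.197, 0.206 and 0.195 in the olfactory bulb, and 0.150, 0.146 and 0.147 in cerebellum. The 3 tissues did not overlap. The bin chr4:32000001-33000000, with the transcription factor gene Bach2 and with Mdn1, had means of 0.220, 0.211 and 0.136. The bin chr15:37000001-38000000, with the neuronal calcium sensor gene Ncald, had 0.212, 0.184 and 0.159. Each of these 3 bins held 1 member and had few repeats, 26.4% in the Bach2 bin and 28.1% in the Ptprg bin. In the olfactory bulb the third place went to chr13:28000001-29000000, with Sox4, Prl5a1 and Prl4a1 (0.196, 0.199 and 0.0833). In cerebellum the second place went to chr4:8000001-9000000 (0.198, 0.192 and 0.165), which holds Chd7, a chromatin remodeller, and Car8, a gene known from Purkinje cells.

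Only 1 member bin was called higher in cerebellum than in cortex, chr14:124000001-125000000. It had 0.177, 0.194 and 0.159 in cortex, 0.159, 0.170 and 0.166 in the olfactory bulb, and 0.249, 0.238 and 0.244 in cerebellum. Cerebellum was above all other libraries, by 0.59 ± 0.07 (SE) against cortex on the log2 scale. The bin is covered over 76.6% by genes, and its 1 protein-coding gene is Fgf14, which encodes a regulator of neuronal sodium channels. Fgf14 ends before the member of this bin, the end piece of 2244 known bases described above, so nearly all sequence behind this 5hmC value lies outside the member. Cerebellum was called higher than olfactory bulb here too (0.71 on the log2 scale), and otherwise only in chr6:19000001-20000000 (0.36) and the adjoining chr6:20000001-21000000 (0.17), both without a protein-coding gene.

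The largest fall from cortex to cerebellum was in chr1:8000001-9000000, with the syntrophin gene Sntg1. Its libraries had 0.117, 0.130 and 0.108 in cortex, 0.0789, 0.0894 and 0.0876 in the olfactory bulb, and 0.0219, 0.0233 and 0.0246 in cerebellum. The difference was -2.49 ± 0.07 (SE, log2 scale) against cortex and -1.97 against olfactory bulb. The next falls against cortex, -2.05 and -2.02, were in chr4:7000001-8000000 and chr13:82000001-83000000, which hold no protein-coding gene. The largest fall against olfactory bulb, -2.24, was in chr6:27000001-28000000 with Grm8, a presynaptic glutamate receptor gene. That bin had 0.151, 0.169 and 0.134 in cortex, 0.186, 0.194 and 0.182 in the olfactory bulb, and 0.0458, 0.0450 and 0.0487 in cerebellum. It was the only member bin called higher in the olfactory bulb than in cortex (0.38 on the log2 scale). The bin chr3:45000001-46000000, with the protocadherin gene Pcdh10, came after the Sntg1 bin with -1.94 and had means of 0.134, 0.134 and 0.0389.

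Olfactory bulb fell most from cortex at gene families of chemical sensing. The bin chr7:103000001-104000000, with 60 protein-coding genes that include Olfr635, Olfr617 and Olfr591, had means of 0.0769 in cortex, 0.0370 in the olfactory bulb and 0.0229 in cerebellum, a difference of -1.12 between the first 2. The bin chr13:22000001-23000000, with Vmn1r203, Vmn1r188 and Vmn1r191, had 0.0805, 0.0401 and 0.0257 (-1.07), and chr4:61000001-62000000, with Mup13, Mup14 and Mup18, had 0.0647, 0.0331 and 0.0259 (-1.01). These values are low, and a small absolute difference is a large one on this scale. The error of TAB-seq at low levels was not taken into account.

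The smallest differences were spread over several kinds of bin. Cerebellum and cortex differed by 0.03 in chr6:19000001-20000000, which has no protein-coding gene (means of 0.105, 0.0848 and 0.106 in the order cortex, olfactory bulb, cerebellum), and by -0.13 in chr9:4000001-5000000 with the AMPA receptor gene Gria4 and 3 members (0.131, 0.122 and 0.121). Olfactory bulb and cortex differed by 0.01 in the Pcdh10 bin, and cerebellum and olfactory bulb by 0.01 in chr9:55000001-56000000 with Scaper (0.167, 0.130 and 0.131).

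The bin with most members, 8, was chr13:27000001-28000000 with the prolactin genes. Its 5hmC was 0.109, 0.123 and 0.105 in cortex, 0.0960, 0.107 and 0.104 in the olfactory bulb, and 0.0377, 0.0402 and 0.0439 in cerebellum. Cortex and olfactory bulb overlapped, and cerebellum was apart from both (-1.58 against cortex on the log2 scale). The bin chr1:139000001-140000000 with F13b held 5 members and had means of 0.154, 0.137 and 0.0722. The bin chr3:4000001-5000000, with 5 members and no protein-coding gene, had 0.0880, 0.0735 and 0.0273. The bin chr15:33000001-34000000, with Cpq and 4 members, had 0.121, 0.0787 and 0.0493.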

How the data were processed

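Genomic DNA of 7 oxBS-seq and 9 TAB-seq libraries was analysed. The authors mapped uniquely placed read pairs to mm10 (GRCm38) with Bismark, whose version is not given in the sources used here, and called CpG sites with a binomial test at a coverage of at least 5. The deposited values are fractions from 0 to 1, of 5mC in 26327 bins of 100 kb and of 5hmC in 2641 bins of 1 Mb. How sites were combined in a bin is not stated, and no coverage is given. RNA-seq libraries of the series were not used here. The members, gene families and tests were chosen with earlier results of these data known. Bins at 0 or 1 in any library were left out (607 autosomal bins of 100 kb and 60 bins of 1 Mb). Sequence features came from the GRCm38 RefSeq FASTA with its soft-masked repeats, genes from GENCODE M21 and promoters from RefSeq. 5hmC was fitted in limma 3.58.1 (R 4.3.3), 3 tissues in 1 fit, without a replicate block, and the script was tested on simulated data. P-values measure only the spread between these libraries. Python 3.11.15 did the rest. Named bins were the 10 highest members, those beside the limit, the longest runs, the 1 Mb bins with most members, and those with the 3 highest and 3 lowest 5hmC per tissue and the 3 largest and smallest differences per pair of tissues. Named genes were those overlapping these bins, the longest genes, and up to 4 genes of each family with at least 3 genes in members.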

Additional observations from a re-analysis of the deposited data

How the results depend on the processing

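For the calls of 5hmC between tissues, each other setting (fraction scale, a limma trend with robust variances, bins at 0 or 1 kept at a limit, autosomes only, 1 Mb bins with 3 or more members) and each left-out library kept the direction. The share called was 74.7% to 88.0% for olfactory bulb against cortex (81.8% in the main fit). For cerebellum it was 92.3% to 99.6% against cortex (98.7%) and 88.9% to 93.3% against olfactory bulb (92.4%). With centred libraries the share called in either direction was 67.1%, 90.2% and 87.6% in the same order. The share called lower then fell from 81.3% to 49.3% for olfactory bulb against cortex and from 98.2% to 59.1% for cerebellum against cortex. For cerebellum against olfactory bulb it fell from 91.1% to 47.6%, since many member bins were then called higher. With the replicate number as a block, 84.4% of the member bins were called for olfactory bulb against cortex, 99.1% for cerebellum against cortex and 92.4% for cerebellum against olfactory bulb. Whether a number marks the same mouse is not stated. Of 9 pairs of same-numbered libraries, 3 deviated together with a correlation over 0.1, and the range was -0.19 to 0.43. Pairs of differently numbered libraries ranged from -0.41 to 0.28. With so few libraries these correlations cannot decide whether the numbers pair them.

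The 5hmC gap between member bins and the others moved by more than its spread between libraries under several settings. In bins with 3 or more members it was -0.0482 in cortex, -0.0526 in the olfactory bulb and -0.0407 in cerebellum. Weighted by the number of members it was -0.0436, -0.0472 and -0.0385, and as a difference of medians -0.0476, -0.0491 and -0.0433. With the 150 highest bins it was -0.0329 in cerebellum. In settings chosen after seeing the data, it was -0.0265, -0.0278 and -0.0161 among the 1 Mb bins in the lowest of 4 groups by gene cover, and -0.00504, -0.00685 and -0.00284 among those in the highest of 4 groups by repeats. The counts of bins with no overlap between tissues, and of members with at least 50 kb of known sequence, were added in the same way. Leaving out 1 library gave -0.0419 to -0.0404 in cortex, -0.0458 to -0.0437 in the olfactory bulb and -0.0368 to -0.0357 in cerebellum. All autosomes hold members, so limiting the comparison to chromosomes with members changed nothing.

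Of the 300 members, 246 to 296 stayed when 1 oxBS-seq library was left out, 218 under the lowest single library, 207 under the mean of the tissues and 132 under centred libraries. The share of members without a gene was 24.7%, and 60% when only protein-coding genes were counted. The share without a gene was 21.3% in the 150 highest bins and 28.8% in the 600 highest. 5mC plus 5hmC was 0.879, 0.883 and 0.856 in the bins with 3 or more members. The causes of these shifts were not tested.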
